A study of Mus musculus with 6 samples.

Results

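Expression of naive pluripotency transcription factors and of the co-activator *Tcl1* was examined in mouse embryonic stem cells (mESCs). The genes were *Nanog*, *Pou5f1*, *Esrrb*, *Tbx3*, *Prdm14*, *Tfcp2l1*, *Zfp42*, *Nr5a2*, *Sall4* and *Tcl1*, chosen by name. Every probe set assigned to one of them was taken, in each case through its annotated gene identifier. All 10 genes were found, with 18 probe sets out of the 33142 analysed here. Of these, 28243 could be named, for 15375 genes in all. A probe set is a group of short oligonucleotides that reads the transcript of 1 gene, and a gene was represented by its probe set with the highest mean.

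Undifferentiated WT mESCs were compared with *Alkbh1*-/- mESCs to find genes whose expression differs when the dioxygenase ALKBH1 is missing. Both genotypes were derived from blastocysts of heterozygous parents, are labelled C57BL/6, were at passage 8 and day 0 of differentiation, and received no treatment before RNA was purified. They were kept in LIF and serum replacement on irradiated CF-1 mouse embryonic fibroblasts, so that the RNA may include some from these feeder cells. For each genotype, 3 Affymetrix whole-genome mouse arrays were hybridised. Whether the arrays of a genotype came from separate cultures or from more than 1 line is not given in the sources used here.

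The values described here are means that the authors made over arrays, and single arrays were not analysed. The authors' mean log2 value over all 6 arrays was available for every probe set. The authors' mean for each genotype, a geometric mean of linear intensities, was available where a probe set was listed in a class comparison. Such a listing required that the probe set passed a filter and reached a nominal significance level of 0.05 between the genotypes. For this reason the ratios below have no SD and no test, and whether one exceeds the spread between arrays cannot be stated from them. The smallest ratio listed, in either direction, was 1.29, so that no small ratio could be seen. Of all named genes, 2832 had a listed probe set, which was 18.4%. The class of *Alkbh1*-/- cells carries the name of the *Alkbh1*-/- arrays, whereas the other class is misnamed in the table and was read as WT from the note deposited with it.

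The targeted gene checked this reading. *Alkbh1* had a mean intensity of 761 in WT and 25.7 in *Alkbh1*-/- cells on its brighter probe set (1434660_at), a ratio of 0.0338. Its other probe set (1438681_at) gave 120.0 in WT and 34.6 in *Alkbh1*-/- cells, a ratio of 0.288. Both probe sets were thus lower in the class read as *Alkbh1*-/-.

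Naive pluripotency is the state of the inner cell mass before implantation, which mESCs keep in the presence of LIF. OCT4, the product of *Pou5f1*, acts together with SOX2 and NANOG at the centre of a network whose factors bind each other's promoters and enhancers. Around this core, ESRRB, TFCP2L1, TBX3, NR5A2 and the KLF factors tie the network to LIF and WNT signalling, while PRDM14 holds back the programme of the primed epiblast, the state that follows implantation. *Zfp42* (also named *Rex1*) is a target of the core that is switched off when cells leave the naive state, SALL4 is a zinc finger partner of OCT4, and TCL1 is a co-activator of AKT kinases that supports proliferation of mESCs.

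Promoter sequence from RefSeq (GRCm38.p6) was at hand for *Nanog*, *Pou5f1*, *Esrrb*, *Tfcp2l1*, *Zfp42*, *Nr5a2* and *Tcl1*, with 11 windows that each run from 250 bases before a transcript start to 50 bases after it. No window was at hand for *Tbx3*, *Prdm14* and *Sall4*. The 250 bases before the start are printed for 4 genes that had genotype means, 5′ to 3′ on the gene's strand. *Nanog* (chr6:122707315-122707564, plus strand) was chosen because it holds a composite of an octamer and a SOX site, the element through which OCT4 and SOX2 act together. *Zfp42* (chr8:43307010-43307259, minus strand) holds an octamer without the SOX site. *Tfcp2l1* (chr1:118627695-118627944, plus strand) holds 2 KLF sites. *Tcl1* (chr12:105222738-105222987, minus strand) holds no match to any of the 5 motifs searched and is shown because its genotype ratio was among the largest. Capitals mark the composite in *Nanog*, the octamer in *Zfp42* and the KLF sites in *Tfcp2l1*.
Nanog: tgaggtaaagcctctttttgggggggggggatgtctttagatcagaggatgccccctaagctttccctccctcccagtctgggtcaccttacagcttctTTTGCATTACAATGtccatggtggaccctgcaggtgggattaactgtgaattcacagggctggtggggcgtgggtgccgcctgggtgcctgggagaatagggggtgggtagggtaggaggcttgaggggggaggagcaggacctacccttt
Zfp42: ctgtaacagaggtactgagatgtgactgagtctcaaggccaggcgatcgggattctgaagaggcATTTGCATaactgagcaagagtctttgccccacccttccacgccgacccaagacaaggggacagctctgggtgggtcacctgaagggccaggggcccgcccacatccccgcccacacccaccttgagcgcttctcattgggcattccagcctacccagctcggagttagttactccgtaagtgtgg
Tfcp2l1: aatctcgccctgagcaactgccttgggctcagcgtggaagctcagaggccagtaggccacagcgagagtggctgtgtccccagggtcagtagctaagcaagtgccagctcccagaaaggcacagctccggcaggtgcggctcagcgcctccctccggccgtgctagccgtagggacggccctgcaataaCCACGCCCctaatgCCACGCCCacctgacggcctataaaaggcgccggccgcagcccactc
Tcl1: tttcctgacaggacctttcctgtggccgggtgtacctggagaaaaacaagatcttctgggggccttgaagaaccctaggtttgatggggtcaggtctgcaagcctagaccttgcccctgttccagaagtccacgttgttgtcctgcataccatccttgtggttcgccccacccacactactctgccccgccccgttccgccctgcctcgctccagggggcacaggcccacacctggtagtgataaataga

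The composite was searched as CATTGT, then 1 base of any kind, then ATGCAAA, on both strands. It was found in 2 of 32851 windows, or 0.00609%, and both belong to *Nanog*, whose 2 windows overlap and share the same match. In the window shown it lies on the minus strand from 151 to 138 bases before the start. The octamer ATGCAAAT was found in 1.74% of all windows and, among the members, only in that of *Zfp42*, 186 to 179 bases before the start on the minus strand. The KLF site GGGNGTGG was in 17.6% of all windows and in 6 of the 11 windows of the members, which belong to *Nanog*, *Nr5a2*, *Pou5f1*, *Tfcp2l1* and *Zfp42*. The SOX site CATTGT alone, which is part of the composite, was in 12.6% of all windows and in 4 of the members' windows (*Esrrb*, *Nanog* and *Pou5f1*). The nuclear receptor site AAGGTCA, of the kind bound by ESRRB and NR5A2, was in 4.72% of all windows and in no window of a member. A match describes letters only, and its absence says nothing about binding elsewhere.

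Of the 10 genes, 7 were listed in the class comparison, and all 7 had the higher mean in *Alkbh1*-/- cells. Over all named genes 18.4% were listed, and 50.3% of the listed genes were higher in *Alkbh1*-/- cells. *Tbx3*, *Tcl1* and *Prdm14* had the largest ratios of *Alkbh1*-/- over WT among them, with 4.96, 4.77 and 3.89. *Nanog* was 2.15 times as high, and *Tfcp2l1*, *Esrrb* and *Zfp42* were 1.51, 1.47 and 1.33 times as high. *Pou5f1*, *Nr5a2* and *Sall4* were not listed. A ratio above 1.5 was reached by 5 of the 7 listed members, where 29.9% of all listed genes reached it in this direction, and a ratio above 2 by 4, where 10.3% did. In the opposite direction, no member was listed, while 29.9% of listed genes were past 1.5 and 7.2% past 2. *Tfcp2l1* was just past the limit of 1.5, and *Esrrb* fell just short of it. The median log2 ratio of the 7 listed members was 1.10, beside 0.65 for the 1424 listed genes that were higher in *Alkbh1*-/- cells. Over all 2832 listed genes, with 1408 lower, the median of 0.39 lies at the edge of the gap around 0 and marks no typical value. Since the members were picked with earlier results of these arrays known, these shares describe them and are not evidence of their direction.

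**Figure D1:**
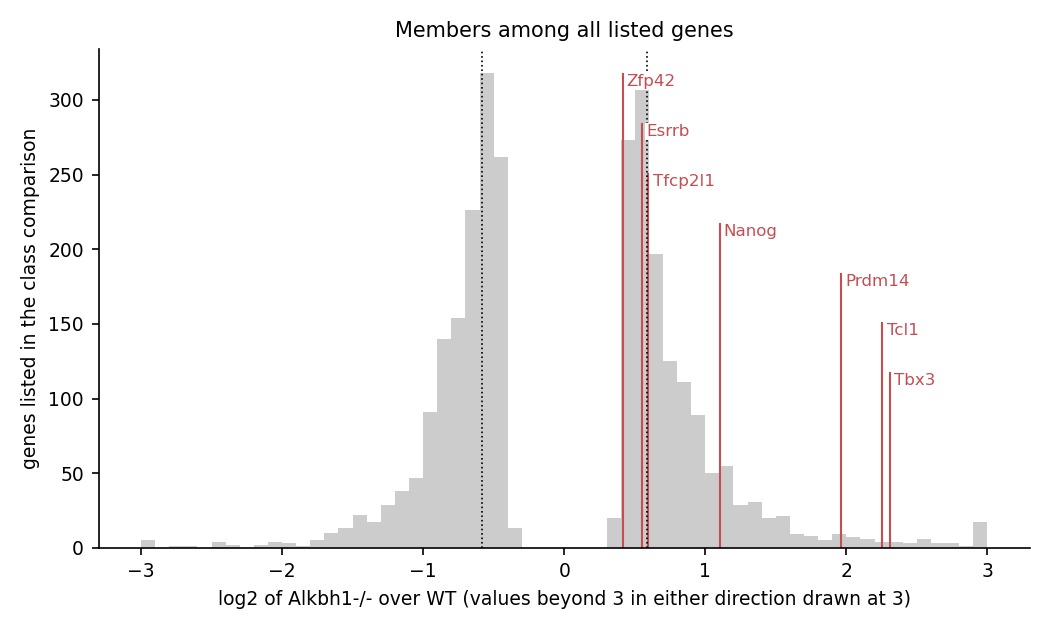
Number of listed genes (vertical axis) by the log2 of the *Alkbh1*-/- mean over the WT mean (horizontal axis), in grey, with the 7 listed members as red lines whose heights carry no meaning. Dotted lines stand at a linear ratio of 1.5 in either direction. The gap around 0 comes from the listing, in which no ratio was smaller than 1.29, and *Prdm14*, *Tcl1* and *Tbx3* lie in the thin upper tail.

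Within the core of the network, genotype means were at hand for 1 gene. *Nanog*, the homeodomain factor whose level varies between single mESCs in serum and LIF, had a mean intensity of 3852 in WT and 8267 in *Alkbh1*-/- cells on its single probe set (1429388_at). This was a log2 ratio of 1.10, and 16.8% of the listed genes that were higher in *Alkbh1*-/- cells had a larger ratio. *Pou5f1*, which encodes OCT4, had a mean log2 value of 12.64 over all arrays on its single probe set (1417945_at). *Sall4* had mean log2 values of 12.06 (1424152_at) and 10.32 (1424153_s_at). None of these 3 probe sets was listed, so that their WT and *Alkbh1*-/- means are not given here. Their not being listed means that a filter or the nominal significance level was not met, and does not show that the genotypes were alike.

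The largest ratios belonged to a T-box factor, to *Tcl1* and to a PR domain factor. *Tbx3*, which links phosphoinositide 3-kinase signalling to *Nanog* and also takes part in extraembryonic endoderm formation, had 4 probe sets. The brightest (1448029_at) had a mean intensity of 399 in WT and 1981 in *Alkbh1*-/- cells. The next (1437479_x_at) had 246 and 1156, a ratio of 4.71, and the third (1445757_at) had 55.6 and 222, a ratio of 3.98. The log2 ratios of these 3 probe sets thus ran from 1.99 to 2.31. The fourth (1439567_at) was not listed and, with a mean log2 value of 4.12, was below the median of 6.31 of all probe sets.

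*Tcl1* had a mean intensity of 442 in WT and 2108 in *Alkbh1*-/- cells on its single probe set (1422458_at), a log2 ratio of 2.25. *Tcl1* lies on chromosome 12 in a cluster with the related genes *Tcl1b1*, *Tcl1b3* and *Tcl1b4*, which are named here as its neighbours. Their probe sets were not listed, with mean log2 values of 5.69, 9.20 and 5.25. Of the nearby genes on chromosome 12 that were looked at, *Ak7* was the one listed besides *Tcl1*, with a log2 ratio of 1.28. *Prdm14*, a repressor of fibroblast growth factor signalling and of DNA methyltransferase genes, had a mean intensity of 152 in WT and 592 in *Alkbh1*-/- cells on its single probe set (1444390_at), a log2 ratio of 1.96. Among the 1424 listed genes that were higher in *Alkbh1*-/- cells, *Tbx3* ranked 36, *Tcl1* 39 and *Prdm14* 58.

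Smaller ratios were found for *Esrrb* and *Tfcp2l1*. *Esrrb*, an orphan nuclear receptor, had 3 probe sets, all of them listed. The brightest (1436926_at) had a mean intensity of 1910 in WT and 2801 in *Alkbh1*-/- cells. The other two gave 405 and 575 (1441921_x_at, ratio 1.42) and 198 and 298 (1422986_at, ratio 1.51). The 3 ratios lie on both sides of 1.5, and their log2 values ran from 0.50 to 0.59. *Tfcp2l1*, a grainyhead-like factor downstream of STAT3, had 2173 in WT and 3288 in *Alkbh1*-/- cells on its single probe set (1418091_at), a log2 ratio of 0.60. *Nr5a2*, a nuclear receptor that can bind the *Pou5f1* promoter, was not listed on any of its 3 probe sets, whose mean log2 values were 8.30 (1420410_at), 7.72 (1449706_s_at) and 4.05 (1449707_at).

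*Zfp42*, the marker of the naive state, had 919 in WT and 1224 in *Alkbh1*-/- cells on its single probe set (1418362_at). Its log2 ratio of 0.41 was near the lower end of what the class comparison lists, and 97.6% of the listed genes that were higher in *Alkbh1*-/- cells had a larger ratio.

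**Figure D2:**
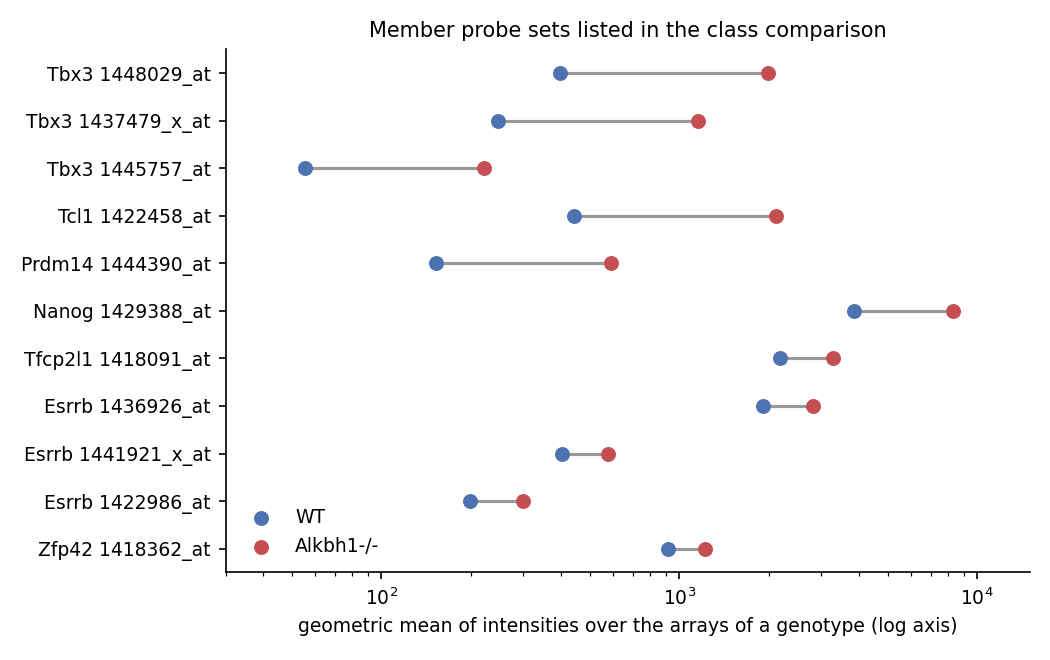
Geometric mean of intensities (horizontal log axis) in WT (blue) and *Alkbh1*-/- cells (red) for the 11 listed probe sets of the members, with a grey line joining the means of a probe set; error bars are absent since only means were at hand. The red point is to the right of the blue one on every line, with the longest lines for *Tbx3*, *Tcl1* and *Prdm14*, and brightness is not comparable between probe sets.

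The spread between listed probe sets of a gene was the only one that could be had, and among the members it was at hand for *Tbx3* and *Esrrb*. For *Tbx3* the 3 listed log2 ratios spanned 0.32, and for *Esrrb* 0.09. Such a span comes from probe sets of 1 gene on the same arrays. It measures neither the spread between arrays nor the error of another gene's ratio, so it serves below only as a scale. In order of size, *Tbx3* was followed by *Tcl1* at a distance of 0.06 on the log2 scale and *Tcl1* by *Prdm14* at 0.29, both less than the span of *Tbx3*. *Prdm14* and *Nanog* were 0.86 apart, and *Nanog* and *Tfcp2l1* 0.50. *Tfcp2l1* and *Esrrb* were 0.05 apart, which is less than the span of *Esrrb*, and *Esrrb* and *Zfp42* were 0.14 apart. *Tbx3* and *Prdm14*, which are not neighbours in this order, were 0.35 apart, slightly more than the span of *Tbx3*. The step from *Esrrb* to *Zfp42* was also less than the span of *Tbx3*. Over all genes with more than 1 listed probe set, the brightest pair had the same direction in 720 of 723.

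The mean over all arrays showed the brightest probe set of every member above 6.31, the median over the whole table. These values ran from 8.23 for *Prdm14* to 12.64 for *Pou5f1*, with a median of 10.61 over the 10 genes. Since the oligonucleotides of different probe sets differ in how brightly they bind, these levels give no order of abundance between genes. Among the 18 probe sets, 11 were listed (61.1%), compared with 12.9% of all probe sets and 15.3% of those at or above the median. *Tbx3* and *Esrrb* each account for 3 of the 11, so these genes are counted more than once. Below the median were 2 of the 18, 1 each of *Tbx3* and *Nr5a2*. For *Tbx3* the brightest and dimmest probe set were 5.68 apart on the log2 scale, for *Nr5a2* 4.25, for *Esrrb* 3.25 and for *Sall4* 1.74.

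**Figure D3:**
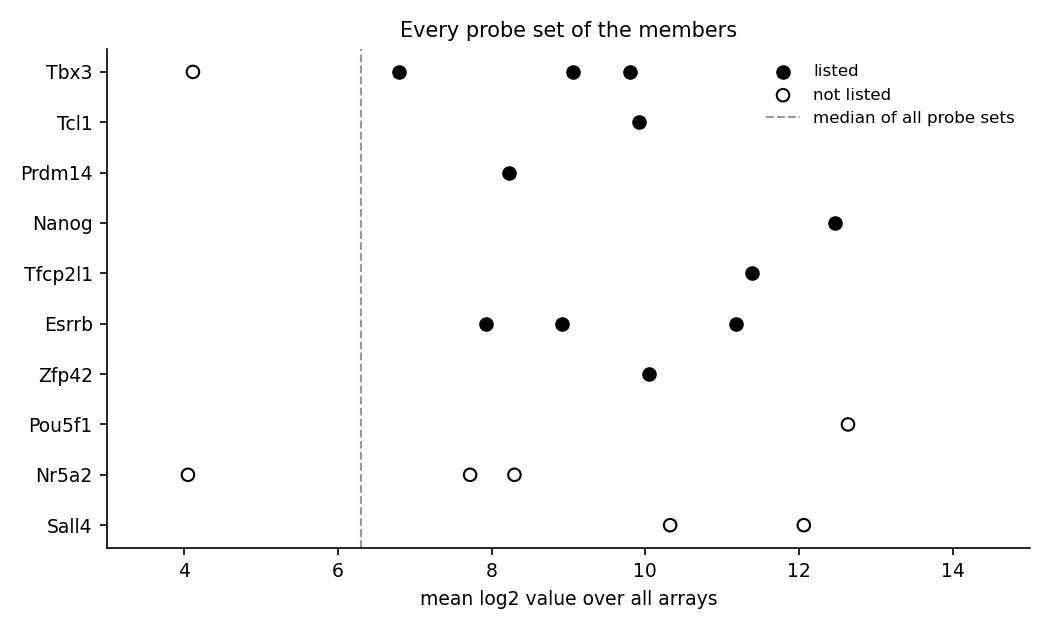
Mean log2 value over all arrays (horizontal axis) of each of the 18 probe sets of the 10 genes, filled where the class comparison lists the probe set and open where it does not. The dashed line is the median of all probe sets, 6.31, and the open points include the bright probe sets of *Pou5f1* and *Sall4* as well as 2 dim ones left of the line.

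Other pluripotency genes did not share 1 direction. Of 35 such genes, all with a named probe set, 15 were listed, with 8 higher and 7 lower in *Alkbh1*-/- cells. Over all named genes 18.4% were listed. Of all listed genes 50.3% were higher, and 29.9% were past 1.5 in each direction, so the split of these 15 was near that of all listed genes. Their median log2 ratio of 0.43 lay beside the gap around 0 that the listing leaves and marks no typical value. Ratios above 1.5 were found for *Kit*, a receptor for stem cell factor (2.47), *Foxd3*, a forkhead factor (2.14), *Tet2*, a 5-methylcytosine dioxygenase (1.91), and *Klf4*, a KLF factor of the naive network (1.59). *Nr0b1*, *Fgf4*, *Pecam1* and *Klf2* were higher by less, with ratios from 1.34 to 1.49. The value of *Fgf4* came from a probe set that was not its brightest. On the lower side, *Dppa3*, a naive marker also called *Stella*, had a mean of 1882 in WT and 671 in *Alkbh1*-/- cells, a ratio of 0.356. *Gbx2*, a homeobox target of STAT3, had a ratio of 0.482. *Etv5*, a target of fibroblast growth factor signalling, had a ratio of 0.504. *Mycn* had 0.558 and *Id1*, a target of BMP signalling, had 0.660. *Lin28a* and *Utf1* were lower by less, at 0.678 and 0.714. The other 20 genes were not listed, *Sox2* among them. So the direction shared by the 7 listed members was not that of every listed gene tied to pluripotency.

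The listed genes of the primed epiblast had lower means in *Alkbh1*-/- cells. Of 15 such genes, 5 were listed, all with a ratio below 1 and past 1.5-fold, and their median log2 ratio was -1.21. For comparison, 18.4% of all named genes were listed. Of the 2832 listed genes, 1408 were lower, and 29.9% were past 1.5-fold in this direction. The de novo DNA methyltransferase *Dnmt3b* had a mean of 5077 in WT and 1825 in *Alkbh1*-/- cells, a ratio of 0.359, and all 3 of its probe sets were listed. *Dnmt3a* had a ratio of 0.307, and all 5 of its probe sets were listed. *Lef1*, a WNT effector, had 0.431, *T*, which encodes Brachyury, had 0.551, and *Fgf5*, the classical marker of this state, had 0.544 at low intensities of 19.0 and 10.3 on a probe set that was not its brightest. *Lef1* and *T* had mean log2 values of 6.64 and 6.45, near the median of 6.31 of all probe sets. The other 10 genes were not listed, among them *Otx2*, *Pou3f1* and *Nodal*, the last with a mean log2 value of 10.26.

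**Figure D4:**
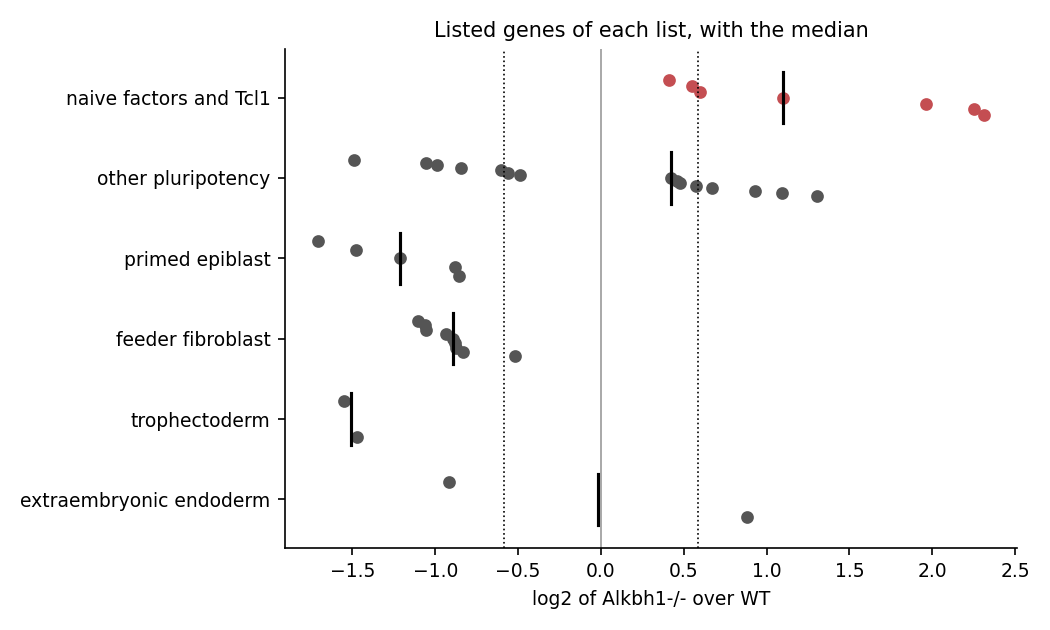
Log2 of the *Alkbh1*-/- mean over the WT mean (horizontal axis) for the listed genes of 6 lists, 1 point a gene, spread vertically for legibility, with a black bar at the median and dotted lines at a ratio of 1.5. The naive factors and *Tcl1* lie to the right of 0 and the listed primed epiblast and feeder fibroblast genes to the left, whereas other pluripotency genes fall on both sides.

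Some transcripts that mark other cells were listed as well. For comparison, 18.4% of all named genes were listed, and 1408 of the 2832 listed genes were lower in *Alkbh1*-/- cells. Of 20 markers of fibroblasts, the feeder cell type, 9 were listed and all were lower in *Alkbh1*-/- cells, with ratios from 0.465 (*Tagln*, an actin-binding protein of contractile cells) to 0.698 (*Thy1*). The summed mean intensity of these 9 was 8638 in WT and 4407 in *Alkbh1*-/- cells, a sum whose direction follows from all 9 being lower and which leaves out the markers that were not listed. The other 11, which include *Vim*, *Fn1*, *Dcn* and *Acta2*, were not listed. Among the 9, the values of *Col1a2*, *Col5a1* and *Prrx1* came from a dimmer probe set, since the brightest of each was not listed. In these bulk samples a smaller number of cells of a type and less RNA in each cannot be told apart, and the part of feeder RNA in the ratios of the members was not tested. Of 5 trophectoderm genes with a probe set, only the keratin genes *Krt8* and *Krt18* were listed, with ratios of 0.342 and 0.361. *Cdx2*, *Eomes* and *Hand1* were not listed. Of 8 markers of extraembryonic endoderm, a lineage in which *Tbx3* also acts, *Sox7* had a ratio of 1.85 and *Dab2* of 0.529, both at low intensity (mean log2 values of 5.35 and 5.86), and 6 were not listed.

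The genotypes also differed in transcripts of the sex chromosomes. The Y-linked genes *Eif2s3y*, *Ddx3y*, *Kdm5d* and *Uty* had a summed mean intensity of 1358 in WT and 47.7 in *Alkbh1*-/- cells, with ratios between 0.0199 and 0.155, while *Xist* was not listed. Of 308 X-linked genes listed, 285 were higher in *Alkbh1*-/- cells. None of the 10 members is X-linked, whereas the 50.3% of all listed genes that were higher includes these X-linked genes. Without X-linked genes, the share of listed genes with a ratio above 1.5 was 24.5%. The differences in Y-linked and X-linked transcripts run along the genotypes. They and the loss of *Alkbh1* thus cannot be told apart as a setting for the ratios of the members or of the other gene lists.

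*Esrrb* and *Tcl1* lie on chromosome 12, as does the disrupted gene. The RefSeq annotation places 17 protein-coding genes between *Esrrb* and *Alkbh1* and 117 between *Alkbh1* and *Tcl1*. Of the 17, 13 had a named probe set, and 2 of these 13 were listed, where 18.4% of all named genes were. The 2 were *Sptlc2* with a ratio of 1.42 and *Vash1* with 0.746. Over the whole of chromosome 12, 41.9% of 93 listed genes were higher in *Alkbh1*-/- cells, compared with 50.3% of all listed genes. *Prdm14*, *Tfcp2l1* and *Nr5a2* lie on chromosome 1, where 50.6% of 168 listed genes were higher. The 50.3% includes the 308 listed X-linked genes, of which 285 were higher. It therefore lies above the share for listed genes outside the X chromosome. For this reason it does not show whether chromosome 12 or chromosome 1 departs from the other autosomes.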

How the data were processed

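Microarrays of 3 WT and 3 *Alkbh1*-/- mESC samples were analysed. The authors normalized the arrays together with RMA (robust microarray analysis) and deposited, for 33142 probe sets, a mean log2 value over all arrays; how these were chosen is not given in the sources used here. A class comparison deposited by the authors gives geometric means of linear intensities, 1 for WT and 1 for *Alkbh1*-/- cells, for 4326 entries, out of 7320 that passed a filter. Both tables also hold the authors' own comparison (fold changes, test statistics, p-values, adjusted p-values and log-odds), which was not used. Single arrays were not analysed here, so that the limma fit considered for them was not made and no test is given.

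The probe set identifiers of the class comparison are not in the order of its values. Each entry was tied to the probe set whose mean log2 value equals the mean of the log2 genotype means within 5e-07, a tolerance chosen after the differences were seen. In this way 4261 entries were tied, of which 8 carried the same identifier. The 2 brightest listed probe sets of a gene had the same direction for 99.6% of 723 genes after this join and for 49.8% by printed identifier. On simulated data, 4324 of 4326 entries were tied to their true probe set. The simulation was easier than the data: each simulated entry had a true probe set, with an error below the largest real difference of 3.56e-07. Of the real entries, 65 were not tied.

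Probe sets were named through RefSeq genes (GRCm38.p6), 28243 of them. A gene was represented by its probe set with the highest mean, or by the brightest listed one. Members and gene lists were chosen with earlier results of these data known. Named were the members, *Alkbh1* and list genes past a ratio of 1.5, and other genes were named after their values were seen. Alternatives were other probe sets, tolerances, the printed identifier, a ratio of 2 and a filter on the mean. Python 3.11.15 with pandas 2.3.3, NumPy 2.4.6 and matplotlib 3.10.9 were used.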

Additional observations from a re-analysis of the deposited data

How the results depend on the processing

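The median log2 ratio of the 7 listed members (1.10) and the counts past a ratio of 1.5 were within 1.5 times of the values given with the mean of a gene's listed probe sets, with its dimmest listed probe set (where 6 members in place of 5 passed, an alternative added after seeing the data), with tolerances of 1e-06 and 0.0001, and among probe sets at or above the median. These settings could hardly move the members. Their median is the ratio of *Nanog*, which has 1 probe set, and among them only *Tbx3* and *Esrrb* had more than 1 listed probe set. All tied means lay within 3.56e-07, inside the wider tolerances, and the brightest probe set of every member was already above the median. Their stability under these settings is thus no support for the ratios. With a ratio of 2, the counts were 4 members, 2 higher and 2 lower of the other pluripotency genes, and 3 primed epiblast genes, all lower. The median mean log2 value of the 10 members was 9.98 in place of 10.61, both with the mean of a gene's probe sets and with the dimmest. The join of the tables decided the ratios: taken by printed identifier, the median log2 ratio of the members was 0.46, with 2 members past 1.5 higher and 3 lower, and the values were -0.80 for *Nanog*, -0.71 for *Esrrb* and -1.29 for *Tcl1*. In the same way 7 other pluripotency genes were past 1.5 higher and 3 lower, and of the primed epiblast genes 3 were higher and 0 lower. Leaving out single arrays was not run, since it needs values of single arrays. No paired analysis was possible because the columns used are means over a genotype and carry no replicate numbers. The number of arrays, 3 for each genotype, limits the precision of every mean.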
